A study of Mus musculus with 6 samples.

Results

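Transcripts of 10 genes that restrain or report signalling through the kinase ERK were compared between Dicer +/- and Dicer -/- mouse embryonic stem (ES) cells; Dicer is the enzyme that releases mature microRNAs. The genes are the phosphatases Dusp4 and Dusp6, the Sprouty inhibitors Spry1, Spry2 and Spry4, the Spred inhibitors Spred1 and Spred2, and the transcription factors Etv4, Etv5 and Egr1. They were chosen by name from the pathway, with the difference between the 2 lines already known. All values that set the lines against each other are therefore a description of these genes, and their p-values are not printed. Where 1 of these genes is said to pass a threshold on the adjusted p, this sorts the genes and is no test. A probe set, the group of short probes that reads a transcript on an Affymetrix array, was taken where the platform annotation named 1 of these genes and no other. There were 28 such probe sets for the 10 genes, among 18194 genes with a probe set of their own.

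The heterozygous group was 3 arrays of line D4 (Dicer +/-), and the null group 3 arrays of line 27H (Dicer -/-), both ES lines kept undifferentiated. Each genotype is 1 line, so effects of the genotype and of the line cannot be told apart. Nothing in the labels says that arrays of 1 line are separate cultures, so the spread between them, and any p-value from it, may be technical. The culture medium, how the alleles were made and which part of Dicer was deleted are not given in the sources used here.

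ES cells secrete FGF4, which binds FGF receptors and activates Ras, the Raf and MEK kinases and then ERK. ERK signalling moves ES cells from the naive state towards differentiation, and its blockade helps to keep them naive. Active ERK also switches on its own brakes. Sprouty proteins act between the receptor and Raf, Spred proteins hold Ras inactive with the help of neurofibromin, and the Dusp phosphatases remove phosphate from ERK itself. Etv4 and Etv5 are ETS transcription factors of the PEA3 group that are induced by FGF, and Egr1 is an immediate early gene, transcribed within minutes of ERK activation.

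The promoters of these genes were looked at for the binding letters of factors that act below ERK. RefSeq promoters of assembly GRCm38.p6 were found for 6 of the 10 genes (Dusp6, Spry1, Spry2, Spred1, Spred2 and Etv5, the last with 2 starts). The 250 bases before the start are shown for 4 genes that stand for the patterns in the data: Dusp6 and Spry1, lower in null cells, Spred2, higher, and Etv5, whose arrays overlapped. Capitals mark the ETS core GGAA on either strand, which reads TTCC on the strand opposite to the gene. The Etv5 sequence is that of the start farther upstream.
Dusp6, chr10:99262981-99263230, plus strand: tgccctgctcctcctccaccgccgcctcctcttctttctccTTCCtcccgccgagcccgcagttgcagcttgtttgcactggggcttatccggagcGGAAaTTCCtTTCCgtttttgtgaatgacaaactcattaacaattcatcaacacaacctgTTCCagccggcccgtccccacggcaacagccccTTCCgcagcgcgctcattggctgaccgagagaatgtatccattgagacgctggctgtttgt
Spry1, chr3:37639697-37639946, plus strand: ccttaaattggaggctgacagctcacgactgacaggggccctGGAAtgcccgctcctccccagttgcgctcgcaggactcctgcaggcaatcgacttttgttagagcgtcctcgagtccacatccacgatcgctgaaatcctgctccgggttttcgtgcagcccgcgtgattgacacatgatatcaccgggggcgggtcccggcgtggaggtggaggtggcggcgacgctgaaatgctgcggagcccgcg
Spred2, chr11:19924192-19924441, plus strand: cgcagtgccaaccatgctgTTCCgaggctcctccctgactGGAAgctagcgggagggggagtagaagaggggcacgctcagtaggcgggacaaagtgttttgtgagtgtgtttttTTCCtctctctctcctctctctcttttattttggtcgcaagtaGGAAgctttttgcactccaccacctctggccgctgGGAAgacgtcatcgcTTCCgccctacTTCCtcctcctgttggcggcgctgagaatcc
Etv5, chr16:22439571-22439820, minus strand: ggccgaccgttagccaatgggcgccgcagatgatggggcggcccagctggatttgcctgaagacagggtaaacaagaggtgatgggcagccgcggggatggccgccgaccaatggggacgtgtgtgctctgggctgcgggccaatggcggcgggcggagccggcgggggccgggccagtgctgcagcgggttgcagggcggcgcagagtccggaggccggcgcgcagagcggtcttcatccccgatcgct
The ETS core was matched 6 times for Dusp6, 1 time for Spry1, 7 times for Spred2 and 0 times before this start of Etv5. It was matched 4 times before the other start of Etv5, 3 times for Spry2 and 4 times for Spred1. The most matches were thus before Spred2, and the lower genes with a promoter here, Dusp6, Spry1 and Spry2, had 1 to 6. No promoter was found for Dusp4, Spry4, Etv4 and Egr1, so these were not searched. Each of them was lower in null cells by more than Dusp6 or Spry2. Of 32851 promoter windows of this length, 93.4% held the core, with a median of 3 matches. The longer ETS motif CCGGAAGT, which contains the core, was in 2.88% of the windows and in 0 of the 7 windows of these genes. The cyclic AMP response element TGACGTCA (1.55% of windows), the AP-1 site TGANTCA (6.75%) and the CArG box bound by serum response factor (1.47%) were also in 0 of the 7. All motifs were searched on both strands. A match is a match of letters and shows no binding.

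The deposited values are intensities in arbitrary units, and only values of the same probe set are compared. A probe set entered the fit if at least 3 of the 6 arrays reached an intensity of 32. Of the 28 probe sets, 24 passed. The other 4, 1421656_at of Spry2, 1443381_at of Etv4, and 1443652_x_at and 1445228_at of Spred1, read between 1.25 and 47.8 on the 6 arrays and give no usable difference. Each gene is represented by its brightest probe set, and by that measure all 10 genes were among the 12927 genes tested. Differences are null minus heterozygous on the log2 scale, with the standard error (SE) of the limma fit. A difference passes both thresholds at an adjusted p under 0.05 and a size of at least 2-fold.

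Dicer1 transcript was read in both lines. Its brighter probe set, 1427941_at, read 1117, 1124 and 1053 in heterozygous and 1256, 1132 and 1203 in null cells. The labels do not place the deletion, so this checks nothing about the genotype. The ES cell markers Pou5f1, Nanog and Sox2 were bright on all 6 arrays, at 11807 or more, 5756 or more and 8455 or more. The summed intensity of 6 ES markers was 58947 to 61317 in heterozygous and 55616 to 58098 in null cells. Of 7 fibroblast markers, read for feeder cells, 5 were tested, with sums of 362 to 405 and 394 to 502, and Postn stayed under 32 on every array. These sums join opposite movements: Dcn went from 31.0 ± 23.8 to 263 ± 56.6 (SD, n = 3), while Col1a1, Col1a2, Col3a1 and Thy1 were lower in null cells without overlap, and the list's median difference was -0.79. Over all tested genes, 28.9% were lower without overlap. The 3 collagen genes were dim. Col1a1 was at -3.35, or at -1.03 with values under 32 set to 32, and Col1a2 and Col3a1 had limma adjusted p values of 0.100 and 0.170. All 6 primitive endoderm markers were tested, with sums of 326 to 604 in heterozygous and 236 to 280 in null cells. Of these only Gata6 was called, at -1.63 (limma adjusted p 0.00824). Gata6 was dim, at 108 ± 21.6 and 38.3 ± 21.5 (SD, n = 3), and was at -1.41 with values under 32 set to 32. The arrays overlapped for Gata4, Sox17, Sox7, Pdgfra and Foxa2, which were also dim, with differences from -0.09 (Gata4) to -1.42 (Sox17). The part of such cells in the differences described here was not tested. In a bulk sample, fewer cells of a type and less RNA per cell cannot be told apart.

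Most of the feedback genes were lower in null cells, and the Spred pair was not. By their brightest probe sets, Dusp4, Spry1, Egr1, Etv4 and Spry4 were lower past both thresholds. These are 5 of 10 genes, against 6.2% of all tested genes that were lower past both. Dusp6 and Spry2 were lower at the adjusted p alone, which makes 7 of 10 (24.3% of all tested genes were lower by that rule). Spred1 and Spred2 were higher at the adjusted p alone, 2 of 10, against 24.5%. For 7 genes every null array was under every heterozygous array, and for Spred1 and Spred2 every null array was above. Over all tested genes those shares were 28.9% and 28.3%. The median difference of the 10 genes was -1.27, beside -0.01 for all tested genes. Because the genes were chosen with this difference in view, nothing more is read from these counts. With each array centred on its own median, the medians were -1.12 and 0.14, and the calls over all genes went from 934 higher and 802 lower to 1268 higher and 574 lower.

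**Figure D1:**
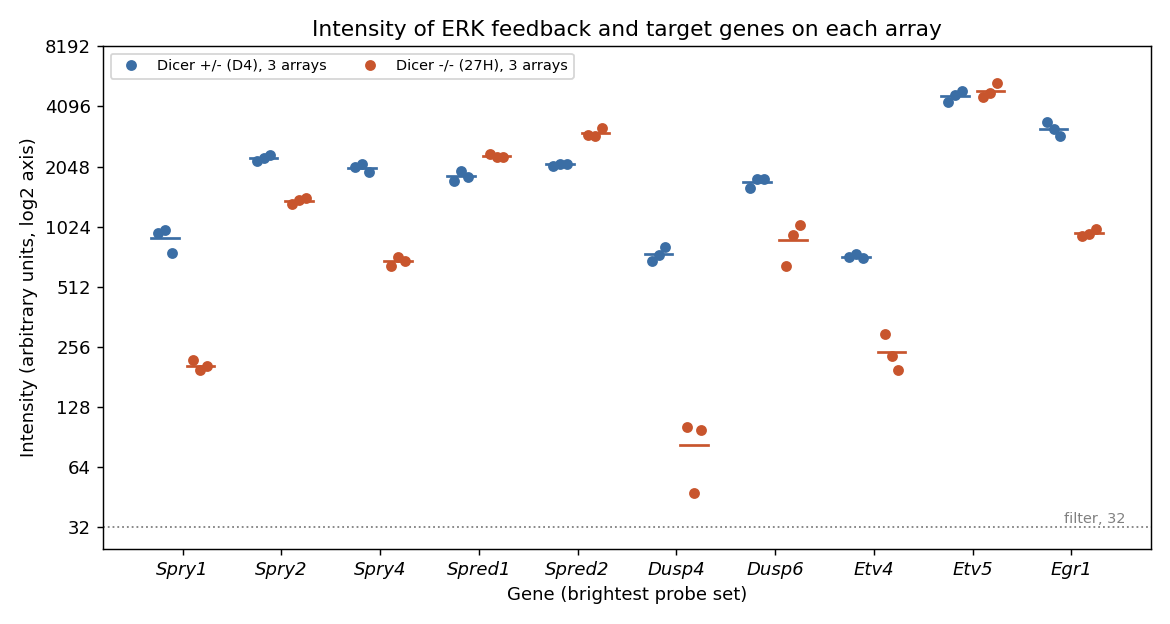
Intensity (arbitrary units, log2 axis) of the brightest probe set of each of the 10 genes; points are arrays and short lines the mean of 3 arrays, with heterozygous arrays in blue and null arrays in orange. The groups stand apart for 9 genes, downwards for 7 and upwards for Spred1 and Spred2, and overlap for Etv5.

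Dusp4 showed the widest gap. This phosphatase of the nucleus inactivates ERK, and its transcript is induced by ERK activity. Its probe set, 1428834_at, read 693, 737 and 813 in heterozygous cells and 102, 47.5 and 97.8 in null cells. Every null array was far under every heterozygous array, and null replicate 2 was the lowest. Means were 748 ± 60.6 and 82.4 ± 30.3 (SD, n = 3), a log2 difference of -3.26 ± 0.26 (SE), or 9.57-fold lower.

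Dusp6, the phosphatase that holds ERK in the cytoplasm and dephosphorylates it, was lower by a smaller step. Its probe set, 1415834_at, read 1595, 1780 and 1779 in heterozygous and 654, 929 and 1049 in null cells. The groups did not overlap, with null replicate 1 the lowest. The fold of 1.99 lay just inside the 2-fold limit (log2 difference -0.995 ± 0.15, SE). It passed the limit without heterozygous replicate 1 (-1.05), null replicate 2 (-1.05) or null replicate 3 (-1.14), with array weights (-1.02) and with quantile normalization (-1.01).

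All 3 Sprouty genes were lower, by unequal amounts. Spry1 (1415874_at) read 952, 990 and 757 in heterozygous and 219, 195 and 205 in null cells. Null arrays lay close together, and the lowest heterozygous array was still more than 3 times the highest null array. The log2 difference was -2.12 ± 0.13 (SE), or 4.33-fold lower. Spry2, which binds the adaptor Grb2 after growth factor stimulation, read 2192, 2272 and 2328 against 1327, 1392 and 1418 (1436584_at). Its arrays did not overlap and varied little, and its fold of 1.64 (log2 difference -0.72 ± 0.07, SE) was under the 2-fold limit.

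Spry4 was read by 4 probe sets, and all were lower in null cells without overlap of the arrays (27.7% of all tested probe sets). The brightest, 1440867_at, read 2030, 2105 and 1916 in heterozygous and 651, 719 and 691 in null cells, 2.94-fold lower (-1.55 ± 0.08, SE). Both 1422020_at and 1422021_at, designed from the same sequence record, were at -1.06, with SE of 0.23 and 0.15. The last, 1445669_at, was at -0.99 ± 0.27 (SE) and its arrays varied most, from 723 to 1322 in heterozygous and from 322 to 699 in null cells. The mean over the 4 probe sets was -1.17. The direction was shared by all Spry4 probe sets, and the size depended on which was read.

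Spred1 and Spred2 went the other way by small amounts. Spred1, the Spred protein mutated in Legius syndrome, read 1728, 1950 and 1809 in heterozygous and 2361, 2284 and 2274 in null cells by 1423160_at. Null arrays were all higher, by a fold of 1.26 (log2 difference 0.34 ± 0.07, SE). Of its 6 tested probe sets, 3 were higher without overlap (23.6% of all tested probe sets), the other two being 1423161_s_at at 0.56 ± 0.11 (SE) and 1452911_at at 0.57 ± 0.11 (SE). The arrays overlapped for 1460116_s_at (0.38), 1428777_at (0.03) and 1423162_s_at (-0.13). Probe sets ending in _s_at can match more than 1 transcript.

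Spred2, its close relative, read 2072, 2107 and 2116 against 2940, 2906 and 3199 by 1434403_at. Heterozygous arrays were nearly equal, and every null array was above them, at 0.52 ± 0.07 (SE), a fold of 1.44. A dimmer probe set, 1436892_at, was also higher without overlap (0.90 ± 0.23, SE). The other 3, with all readings between 24.3 and 126, overlapped and were at 0.47, 0.25 and -0.25. Spred2 and Etv4 lie on chromosome 11, where the median log2 difference over 1097 tested genes was 0.29. The chromosomes of the other 8 genes had medians from -0.07 to -0.01.

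**Figure D2:**
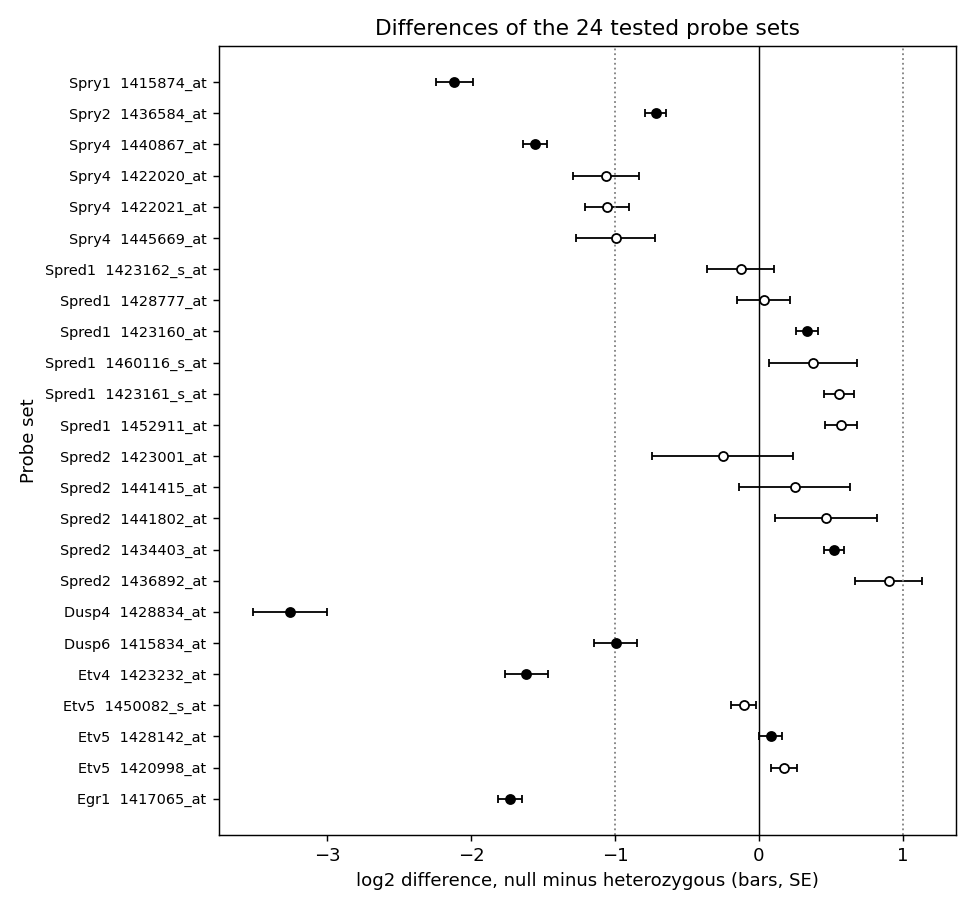
log2 difference (null minus heterozygous) of the 24 tested probe sets, with the SE as bars; filled points are the brightest probe set of each gene and dotted lines mark a 2-fold difference. All 4 probe sets of Spry4 lie to the left of 0, the 6 of Spred1 run from -0.13 to 0.57, and the 3 of Etv5 lie from -0.11 to 0.18.

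The PEA3 factors were unlike each other. Etv4 (1423232_at) read 722, 744 and 712 in heterozygous and 296, 230 and 195 in null cells. The heterozygous arrays were nearly equal, the null arrays more spread and all lower, with a log2 difference of -1.61 ± 0.15 (SE), or 3.06-fold. Etv5 (1428142_at) read 4321, 4672 and 4889 against 4570, 4787 and 5369. These ranges overlapped, with a difference of 0.08 ± 0.08 (SE). The other 2 Etv5 probe sets overlapped as well, at 0.18 ± 0.09 (SE) for 1420998_at and -0.11 ± 0.09 (SE) for 1450082_s_at. Whether Etv4 and Etv5 differ in their response was not tested, since both were chosen with these values known.

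Egr1, a zinc finger factor and a standard readout of recent ERK activity, has 1 probe set here, 1417065_at. It read 3414, 3176 and 2925 in heterozygous and 919, 941 and 1002 in null cells. All null arrays were close together and far under the heterozygous ones, 3.32-fold lower (-1.73 ± 0.08, SE). Egr1 and Spry4 lie on chromosome 18, where the median over 325 tested genes was -0.03.

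By the brightest probe sets, arrays of the same line differed little for most of these genes. The largest deviation of an array from its line's mean was -0.72 (log2) for Dusp4 in null replicate 2. Dusp6 followed at -0.40 in null replicate 1, and Etv4 at 0.32 in the same array. For the other 7 genes no array lay more than 0.24 from its line's mean. Some of their dimmer probe sets varied more. For 1445669_at of Spry4, replicate 3 lay at 0.51 in heterozygous and 0.59 in null cells. For 1460116_s_at of Spred1, replicate 1 lay at -0.48 and -0.62. Arrays of the same number did not always move alike. For 1423162_s_at of Spred1, replicate 2 lay at -0.59 and 0.08, and for 1436892_at of Spred2, replicate 3 lay at 0.53 and -0.19. The array that stood out was null replicate 2 for Dusp4 and null replicate 1 for Dusp6 and Etv4. The direction differed: null replicate 1 was the lowest of its line for Dusp6 and the highest for Dusp4 and Etv4. Heterozygous replicate 1 was the lowest of its line for both Dusp6 and Dusp4 (-0.11 each).

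Other genes of the pathway were read from 6 lists, with adjusted p values from the fit over all genes. The lists were written by pathway role, but with some results of these arrays known, so their counts are not independent evidence. Of the 12927 genes, 7.23% were called higher and 6.2% lower past both thresholds, while the adjusted p alone gave 24.5% and 24.3%. The lists' medians stand beside -0.01 for all tested genes.

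Among FGF ligands and receptors, 9 of 10 genes were tested and 3 fell. Fgf5, a ligand of the primed epiblast, fell from 339 ± 45.0 to 52.3 ± 16.4 (SD, n = 3), a 6.68-fold decrease (limma adjusted p 5.57e-06). Fgf15 fell 4.45-fold (limma adjusted p 2.53e-07) and Fgf17 2.07-fold (2.12e-05). With arrays centred on their medians, and as a mean over its probe sets, Fgf17 was short of the limit, at -0.90 and -0.92. Fgf4, the ligand that ES cells make themselves, went the other way under the 2-fold limit. It read 4314, 4239 and 3509 in heterozygous and 6124, 6146 and 5079 in null cells, 1.44 times higher (limma adjusted p 0.00093). The receptor Fgfr1 went from 746 ± 29.8 to 461 ± 47.1 (SD, n = 3) and was at -0.70 (limma adjusted p 0.000185). Fgfr3, dim in both lines, was at -2.15 with a limma adjusted p of 0.0691, or at -0.62 with values under 32 set to 32. It was called without null replicate 3 (-3.06), with array weights (-2.49) and on the log2 scale of value plus 16 (-1.14). The list's median was -0.84.

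Adaptors and exchange factors pass the signal from the receptor to Ras. Of 9 tested, 1 rose and 1 fell, with a median of 0.04. Sos2, an exchange factor that loads Ras with GTP, rose from 116 ± 22.9 to 302 ± 95.8 (SD, n = 3; limma adjusted p 0.000641). Frs3, a docking protein of FGF receptors, fell from 174 ± 8.24 to 86.1 ± 29.8 (limma adjusted p 0.00516). It was not called without null replicate 1 (-0.81), with median centring (-0.92) or on the log2 scale of value plus 16 (-0.94).

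Of the 15 genes listed for the cascade from Ras to ERK, 8 had a probe set that named them alone, and the other 7 were not analysed here. The gene called was Nras, a Ras GTPase. It read 3085, 2847 and 2640 in heterozygous and 1362, 1139 and 1158 in null cells, 2.35-fold lower (limma adjusted p 1.02e-06). At the adjusted p alone, 5 of the 8 were lower and 1 higher, with a median of -0.35. The kinase Braf was at -0.69 (limma adjusted p 6.62e-05) and the scaffold Ksr1 at 0.98 (0.000263). Ksr1, on chromosome 11, passed the 2-fold limit without heterozygous replicate 1 (1.003), null replicate 2 (1.03) or null replicate 3 (1.06), and with median centring (1.13).

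Of 21 other inhibitors of the pathway, 20 were tested, 1 rose and 1 fell, and at the adjusted p alone 7 were higher and 5 lower, with a median of -0.07. These counts are near the shares over all genes. Lrig1, which promotes the loss of growth factor receptors, rose from 101 ± 10.3 to 350 ± 42.6 (SD, n = 3; limma adjusted p 5.27e-06). Its probe set is 1449893_a_at. Without probe sets that carry a letter before _at in their name, Lrig1 is read by another probe set, at -0.17 (limma adjusted p 0.815). Spred3, a further Spred protein with dim signal, fell from 67.9 ± 17.0 to 27.9 ± 8.0 (limma adjusted p 0.0347). It lost its call without heterozygous replicate 1 or 2 or null replicate 1 or 3, at adjusted p values from 0.059 to 0.139, and in 5 other refits.

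Immediate early genes, the longest list, had the most calls. Of 27 genes, 23 were tested, 2 rose and 6 fell, and at the adjusted p alone 3 were higher and 14 lower. Their median was -0.50. Fosl1, an AP-1 subunit, fell from 153 ± 5.68 to 36.0 ± 20.9 (SD, n = 3; limma adjusted p 0.000911), or 3.86-fold once values under 32 are set to 32. Junb, also of AP-1, fell 3.53-fold (limma adjusted p 7.75e-06), Maff, a small basic leucine zipper factor, 2.82-fold (0.00157) and Ier3 2.65-fold (7.99e-07). Ier3 was the least variable of these, at 667, 660 and 671 against 248, 252 and 253.

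The other 4 called genes of that list are named because they are few, after their values were seen. Myc, the growth regulator, fell by 1.24 on the log2 scale, and Zfp36, which speeds the decay of AU-rich transcripts, by 1.12. Jund rose by 1.06 and the antiproliferative factor Btg2, on chromosome 1 (median 0.31), by 1.01. Zfp36 was at -0.96 with median centring. Without probe sets that carry a letter before _at, Ier3, Myc and Zfp36, each read by an _a_at probe set, were not tested. Ccn1 was then called lower by another probe set (-1.24), and the list had 2 calls upwards and 4 downwards. Jund was at 0.94 without null replicate 3 and at 0.33 as a mean over its probe sets. Btg2 was at 0.97 without heterozygous replicate 2 or null replicate 1, at 0.99 with quantile normalization, at 0.997 on the log2 scale of value plus 16, and at 0.53 as a mean over its probe sets. Ier2 was called without heterozygous replicate 3 (-1.03) and Fosl2 without null replicate 3 (-1.04). Fos went from 513 ± 112 to 362 ± 70.6 (SD, n = 3) and was at -0.50 (limma adjusted p 0.0393), with overlapping arrays.

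Among other ETS factors, 11 of 13 were tested, with 1 rise and 1 fall and a median of -0.05. Ets1 fell from 139 ± 7.08 to 24.6 ± 8.94 (SD, n = 3; limma adjusted p 0.000152), or 4.21-fold with the same floor. Elk4, a partner of serum response factor, rose from 214 ± 64.7 to 1681 ± 70.2 (limma adjusted p 1.45e-07). It lies on chromosome 1 and is read by an _a_at probe set. Without probe sets that carry a letter before _at, Elk4 is read by another probe set, at 0.75 (limma adjusted p 0.0973).

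**Figure D3:**
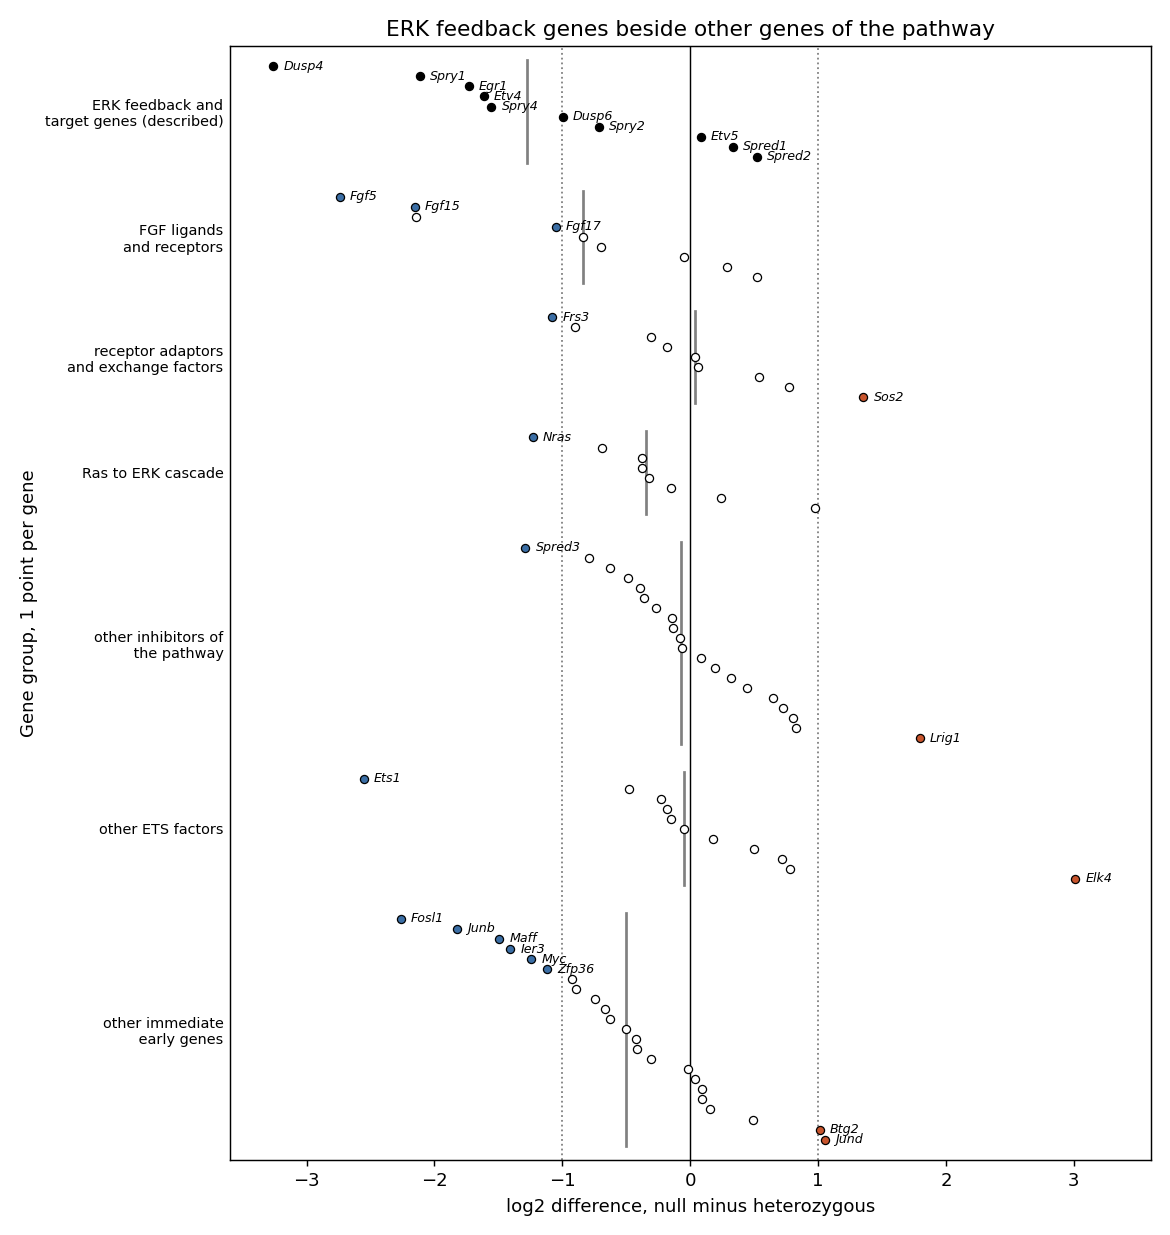
log2 difference (null minus heterozygous) of the 10 ERK feedback and target genes (black, described without a test) and of the tested genes of 6 pathway lists; blue points were called lower, orange points higher and open points not called, grey bars are medians and dotted lines mark a 2-fold difference. Immediate early genes hold 6 calls on the left and 2 on the right, while the other inhibitors hold 1 on each side.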

How the data were processed

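The deposited table holds linear intensities, as its values show, for 45101 probe sets on 6 arrays of biotin-labelled cRNA made from total RNA. The submitters' processing notes name GCRMA alone, with no role or version. All 6 arrays share a mean of 500 once 2% of values are trimmed from either end, so the values are globally scaled and are not GCRMA's log2 values. An intensity of 32 was reached by 56.9% to 60.3% of probe sets per array, and no detection calls were used. Precision is limited by the small number of arrays.

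After 64 control probe sets were removed, 34945 carried 1 gene symbol, 932 several and 9160 none. Values were turned into log2 and filtered at a log2 of 5 in at least 3 arrays, with the brightest probe set per gene. limma 3.58.1 in R 4.3.3 (lmFit, eBayes with an intensity trend, two-sided, group as the only term) was fitted over all genes, and over all probe sets for the probe set values, with Benjamini-Hochberg adjustment. The script was tested on simulated data. Means ± SD are of linear intensities, and folds come from mean log2 values.

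The 10 genes and the lists were chosen with earlier results of these data known. From each list up to 4 called genes are named by size, with up to 2 more at an adjusted p under 0.05 where fewer than 2 were called; Dicer1, Pou5f1, Nanog, Sox2, Fgf4 and Fgfr1 are named whatever their values. Some genes are not reported here. Fgfr3, Fos, Ier2 and Fosl2 were named after their values were seen. Chromosome names come from the RefSeq gene table of GRCm38.p6. Alternatives were other filters, variance priors, normalizations, probe set rules, log scales and thresholds, array weights, the replicate number as a block, and leaving out each array. Protein sequences were planned and were not analysed here.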

Additional observations from a re-analysis of the deposited data

How the results depend on the processing

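Of the 18 alternatives that refit the data, several left the difference of all 10 genes exactly as in the main fit. These were the other filters and variance priors, the replicate block, leaving out probe sets with a letter before _at, and raising low values. The mean over probe sets also changed nothing for Dusp4, Dusp6, Spry1, Spry2, Etv4 and Egr1. Such settings could not turn a sign and are no check of it. Through all 18, each of the 10 genes kept the sign of its difference. Their ranges were -3.45 to -2.90 for Dusp4, -1.14 to -0.80 for Dusp6, -2.23 to -1.96 for Spry1, -0.74 to -0.56 for Spry2, -1.59 to -1.17 for Spry4, 0.29 to 0.49 for Spred1, 0.38 to 0.68 for Spred2, -1.77 to -1.46 for Etv4, 0.02 to 0.24 for Etv5 and -1.79 to -1.58 for Egr1. Median centring raised all of them by the same amount.

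At an adjusted p alone, 6305 genes passed in place of 1736, and 9 of the 10 genes. The lists then had 6 for the cascade, 6 for adaptors, 12 for other inhibitors, 17 for immediate early genes, 5 for ETS factors and 5 for FGF genes, since the limit on size was dropped. With median centring the cascade had 2 calls, the adaptors 1 and the other inhibitors 1. The adaptors and the other inhibitors had 1 each on the scale of value plus 16. The other inhibitors also had 1 without any filter, with the filter at a log2 of 7 (Spred3 was then not tested) and with quantile normalization. They had 1 as well with values raised to 32, at an adjusted p under 0.01 and without probe sets that carry a letter before _at. The ETS factors had 1 in that last setting, which replaces the probe set of Elk4. The cause of the other changes was not tested.

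Leaving out 1 array gave 1569 to 1693 calls over all genes, 5 to 6 of the 10 genes, 1 to 2 calls in the cascade, 1 to 2 adaptors, 1 to 2 other inhibitors, 7 to 9 immediate early genes, 2 ETS factors and 3 to 4 FGF genes.

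The labels number the replicates 1 to 3 in both lines. Deviations of arrays with the same number correlated at 0.04, 0.03 and 0.09, and all 6 arrays correlated best with their own number. These correlations were low, and the main fit left the replicate number out. Whether arrays of the same number share an effect was not tested. For each of the 10 genes the SE was smaller with this number as a block, as for Dusp6 (0.146 to 0.093) and Spry1 (0.125 to 0.117). With the replicate number as a block, 1746 genes were called, 5 of the 10 genes, and 1, 2, 2, 8, 2 and 3 genes in the cascade, adaptor, other inhibitor, immediate early, ETS and FGF lists.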
